A study of Mus musculus with 12 samples.

Results

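The 9 genes described here are 3 tissue inhibitors of metalloproteinases (TIMPs), Timp1, Timp2 and Timp3, and 6 matrix metalloproteinases (MMPs), Mmp2, Mmp3, Mmp9, Mmp13, Mmp14 and Mmp15, out of 22753 genes in the count table. The set was chosen by the measured level of Timp1, which was lower in GFP-positive cells of both clones. The other 8 entered with it as relatives and interaction partners, though earlier results of these data were known when they were chosen. The difference of Timp1 between GFP-positive and GFP-negative cells therefore stands below as a description with no test. All cells were mouse embryonic stem cells that lacked Sphk2 and were grown in serum with LIF, from clones numbered 10 and 4. Every library came from cells exposed to 6 uM 4-hydroxytamoxifen for 48 hours and then sorted on Cre-GFP. The GFP-positive cells are labelled Sphk1-/- Sphk2-/- and the GFP-negative cells Sphk1fl/fl Sphk2-/-, with 3 libraries of each in each clone and 12 in all. Each line is 1 clone, the labels do not name the promoter that drives Cre-GFP, and no cells without tamoxifen were analysed here.

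Matrix metalloproteinases are zinc-dependent endopeptidases that cut collagens, proteoglycans and other proteins outside the cell, and most are secreted as inactive zymogens. TIMPs bind the active site of these enzymes and block it, so the balance of enzyme to inhibitor sets how fast matrix is turned over. In mouse, stromal cells such as fibroblasts are a rich source of several members, and embryonic stem cells are known to express some of them as well.

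The promoter sequences of the members that the comparisons below turn on are shown first, since Mmp3 and Mmp13 lie in 1 gene cluster, Timp1 set the choice of genes and Mmp15 differed between the clones. The bases lie just upstream of the annotated start, run 5′ to 3′ on the plus strand and come from RefSeq on GRCm38.p6. Capitals mark matches to the AP-1 motif TGANTCA, to the TATA box TATAAA, or to the GC box, whose letters are GGGCGG. Both strands were searched, so a GC box can also read CCGCCC.
Timp1, chrX:20869916-20870165: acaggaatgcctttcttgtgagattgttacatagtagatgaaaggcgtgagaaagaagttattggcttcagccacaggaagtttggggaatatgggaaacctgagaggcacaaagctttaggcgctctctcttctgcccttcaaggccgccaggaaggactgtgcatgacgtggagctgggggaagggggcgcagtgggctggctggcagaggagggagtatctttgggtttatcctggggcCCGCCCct
Mmp3, chr9:7445572-7445821: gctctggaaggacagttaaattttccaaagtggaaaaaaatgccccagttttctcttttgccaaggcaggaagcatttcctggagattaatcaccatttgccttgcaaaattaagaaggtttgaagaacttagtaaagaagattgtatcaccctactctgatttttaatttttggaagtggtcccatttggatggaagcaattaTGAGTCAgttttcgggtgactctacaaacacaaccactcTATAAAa
Mmp13, chr9:7272264-7272513: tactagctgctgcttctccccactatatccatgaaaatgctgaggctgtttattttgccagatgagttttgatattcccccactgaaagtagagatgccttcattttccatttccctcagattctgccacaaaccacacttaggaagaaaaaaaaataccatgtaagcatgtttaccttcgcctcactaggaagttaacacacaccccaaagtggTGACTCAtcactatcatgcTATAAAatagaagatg
Mmp15, chr8:95352046-95352267: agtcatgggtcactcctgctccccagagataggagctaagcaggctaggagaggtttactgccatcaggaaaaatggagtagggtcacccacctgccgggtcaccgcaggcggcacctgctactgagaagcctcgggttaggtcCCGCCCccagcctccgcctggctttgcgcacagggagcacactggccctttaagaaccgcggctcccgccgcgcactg

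The Mmp3 window holds an AP-1 match that begins 46 bases before the start and a TATA match, and the Mmp13 window holds an AP-1 match 35 bases before the start and a TATA match. Of 32851 promoters of 250 bases, 6.75% hold the AP-1 letters, 12.4% the TATA letters and 1.21% both. The Timp1 and Mmp15 windows each hold a GC box match, as do 32.7% of promoters, and neither an AP-1 nor a TATA match. A STAT motif, TTCNNNGAA, was found in no printed window and in 7.02% of promoters. A match describes letters only, and of the 9 members 7 had an entry in the promoter table. Mmp2 and Mmp9 had none.

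The 12 libraries held 12968916 to 34258395 counts, and levels are given in CPM, the count of a gene divided by its library's total and scaled to a common total. Replicate 1 of the GFP-negative cells of clone 10 was the shallowest, and its mitochondrial share of 0.143% was the smallest while its 10 largest genes took 7.39% of counts, more than in any other library. Results that rest on this library are given with and without it. All 12 pluripotency markers were detected in each library and summed to 6363 to 12120 CPM. Sphk1, the floxed gene, averaged 1.68 ± 1.16 CPM in GFP-positive and 2.13 ± 1.91 CPM in GFP-negative cells of clone 10, and 1.26 ± 0.68 CPM in GFP-positive and 2.25 ± 0.67 CPM in GFP-negative cells of clone 4 (SD, n = 3 each). Its difference, averaged over the clones, was -0.63 on the log2 scale (SE 0.46) and did not pass the test (edgeR, adjusted p = 0.77). The labels do not say which exons Cre removes, so the count of the whole gene checks the deletion only weakly. Whether replicates were separate cultures or sorts is not stated, so the p-values reflect the spread among these libraries, which may be technical. Replicate numbers pair the libraries within a clone, and each comparison was also fitted within these 6 pairs.

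Per kilobase of exon, Timp1, a secreted inhibitor of most soluble MMPs, was the most abundant member at 91.3 ± 32.9 CPM per kilobase (SD over 12 libraries), above 96.7% of the genes tested. Timp2, which inhibits MMPs and also takes part in activating pro-Mmp2, followed at 15.4 ± 13.8 CPM per kilobase. The gelatinase Mmp2 was at 11.4 ± 7.81 CPM per kilobase, and the membrane-anchored collagenase Mmp14 at 8.78 ± 3.35. Mmp15, another membrane-anchored MMP, was at 5.75 ± 2.80 CPM per kilobase. The other gelatinase, Mmp9, was at 2.24 ± 1.87 CPM per kilobase, and the matrix-bound inhibitor Timp3 at 1.53 ± 0.80. The stromelysin Mmp3 was at 1.10 ± 1.02 CPM per kilobase, and the collagenase Mmp13 at 0.655 ± 0.732. Timp1 stood clear of the rest, since its lowest library, 38.5 CPM per kilobase, was below only the highest library of Timp2, 47.8. The neighbours after it lay within each other's spread. The range between libraries differed widely, with the highest CPM of a gene 3.47 times its lowest for Mmp14 and 3.68 times for Timp1, but 38.5 times for Mmp13 and 49.1 times for Mmp3, whose lowest library held 3 counts.

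Timp1 lies on chromosome X (mm10, 20870166 to 20874735) and had a lower level on the GFP-positive side in 6 of 6 pairs. In clone 10 it had 69.6, 54.7 and 74.7 CPM in GFP-positive replicates 1 to 3, against 110.4, 77.1 and 125.7 CPM in GFP-negative replicates. In clone 4 the levels were 57.7, 62.6 and 34.2 CPM in GFP-positive replicates, against 108.0, 123.3 and 74.5 CPM in GFP-negative replicates. The groups did not overlap in either clone, a pattern that held for 3.59% of all tested genes in clone 10 and 2.04% in clone 4. The pair differences ran from -1.04 to -0.52 on the log2 scale, and 7.29% of genes tested were lower in all 6 pairs. The fitted log2 difference was -0.78 in clone 10 (SE 0.26) and -0.98 in clone 4 (SE 0.27), or 0.583 and 0.507 times the level of GFP-negative cells. Within pairs it was -0.76 in clone 10 and -0.99 in clone 4, with a standard error of 0.13 in each, and without the shallowest library the difference in clone 10, fitted without pairs, was -0.63. The authors' deposited tables list log2 fold changes of -0.733 (SE 0.255) for clone 10 and -0.768 (SE 0.258) for clone 4.

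Several other readings moved with the same gate. The mitochondrial share of counts, the summed level of 8 endothelial markers and that of 12 two-cell-like markers were each higher on the GFP-positive side in 6 of 6 pairs. Endothelial sums were 258.8 to 463.6 CPM in GFP-positive and 109.3 to 184.5 CPM in GFP-negative cells of clone 10, and 170.6 to 346.5 CPM in GFP-positive and 130.5 to 280.2 CPM in GFP-negative cells of clone 4, with Emcn at 0 in 9 of 12 libraries. Two-cell-like sums were 805.8 to 3859 CPM in GFP-positive and 75.3 to 166.8 CPM in GFP-negative cells of clone 10, and 25.6 to 263.1 CPM in GFP-positive and 4.58 to 15.9 CPM in GFP-negative cells of clone 4. The summed level of 26 AP-1, STAT3 and other regulator genes was lower on the GFP-positive side in 6 of 6 pairs, at 1094 to 1206 CPM in GFP-positive and 1255 to 1451 CPM in GFP-negative cells of clone 10, and 979.2 to 1514 CPM in GFP-positive and 1053 to 1646 CPM in GFP-negative cells of clone 4. A sum follows its most abundant genes, and single regulators went both ways. Of 25 tested, 18 had a negative mean log2 difference (edgeR without pairs, median -0.14, beside -0.009 over all genes). Within pairs in clone 10 edgeR called 2 higher and 1 lower, beside 4.22% of all genes. Pluripotency sums were lower on the GFP-positive side in 5 of 6 pairs, as were the sums of 12 primitive endoderm markers, which had 81.9 to 106.2 CPM in GFP-positive and 83.0 to 184.5 CPM in GFP-negative cells of clone 10, and 67.4 to 93.5 CPM in GFP-positive and 55.8 to 111.5 CPM in GFP-negative cells of clone 4. By gene, 10 of 12 pluripotency markers had a negative mean log2 difference (edgeR without pairs, median -0.24). Of 10 tested primitive endoderm markers only 6 did (median -0.12), so their list did not move as a whole. In 5 of 6 pairs the GFP-positive library is also labelled 1 passage later. Their part in the level of Timp1 was not tested. Timp1 lies inside Syn1, a synapsin gene on the opposite strand, with no shared exon, and Syn1 averaged 25.0 CPM in GFP-positive and 21.9 CPM in GFP-negative cells of clone 10, and 20.7 and 19.6 CPM in those of clone 4.

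**Figure D1:**
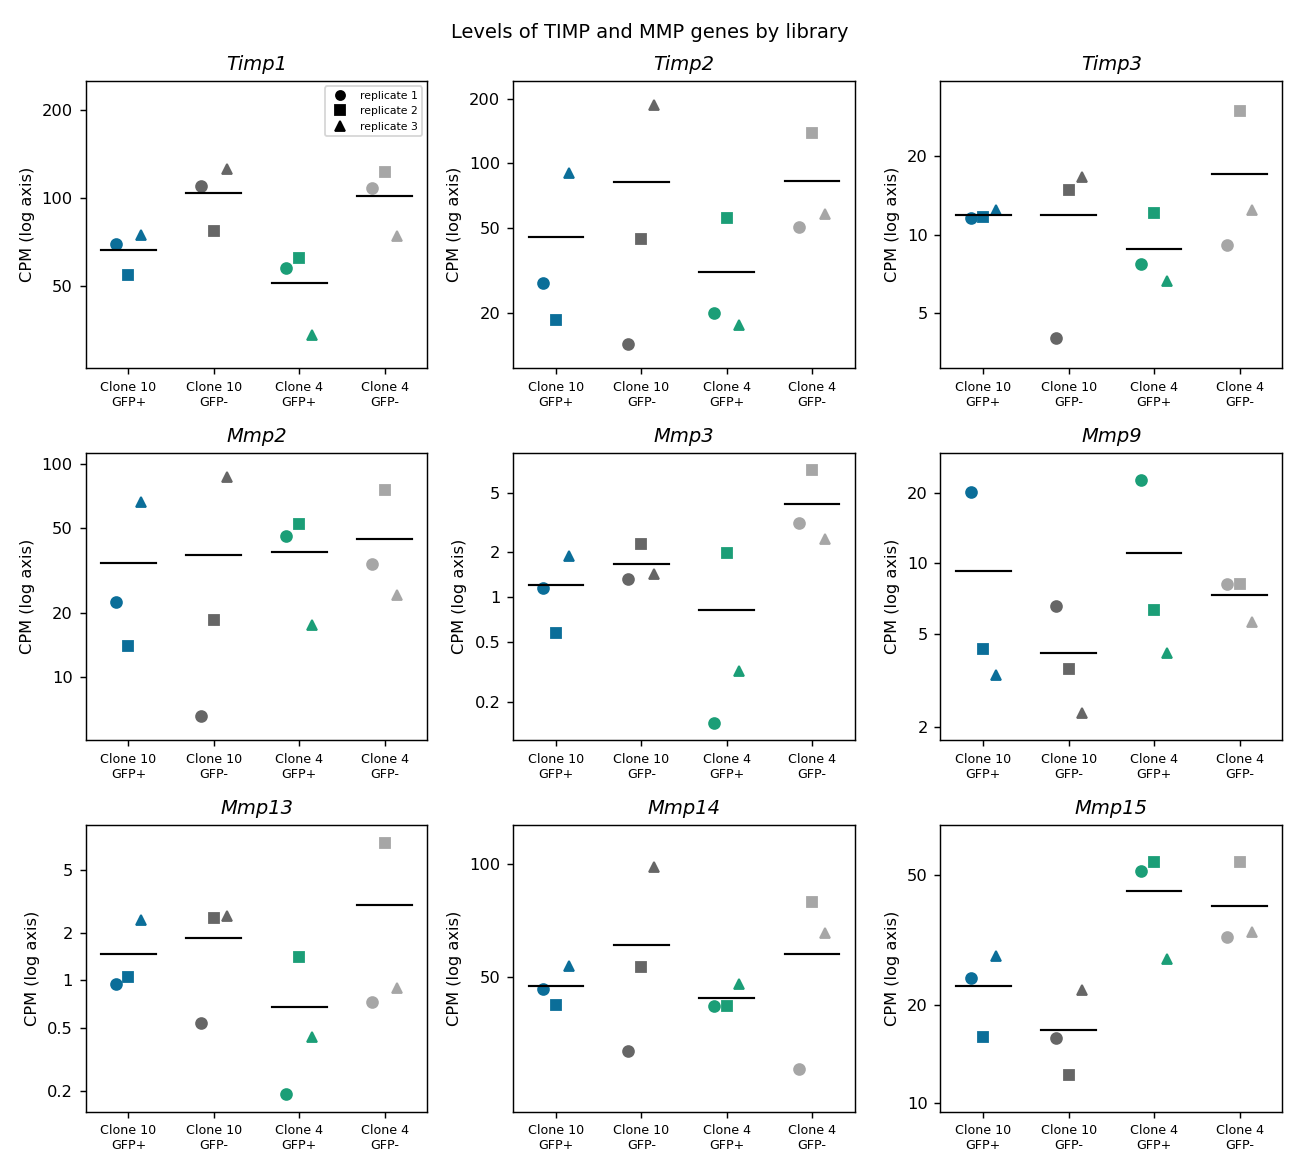
Level of each of the 9 genes in CPM on a log axis, with 1 point per library, the marker shape giving the replicate number and the bar the mean of 3 libraries. GFP-positive and GFP-negative libraries of Timp1 do not overlap in either clone, while those of most other genes do.

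Genes were ranked by how closely their deviations from group means went with those of Timp1 across the 12 libraries. The top 8 were picked from all genes with a mean log2 CPM of at least 1, with predicted genes passed over. High values were therefore bound to occur, and that the top genes lie outside the family is no result. The 8 likest genes were Fabp3-ps1 (r = 0.987), the fatty acid binding protein gene Fabp3 (0.986), Angel1 (0.986), Ostf1 (0.985; osteoclast stimulating factor), Cd164l2 (0.984), Pnck (0.984; a calmodulin-dependent kinase), Pld3 (0.981; a lysosomal nuclease) and Stac2 (0.981). Fabp3 and Fabp3-ps1 are close copies whose reads the counting could split. None of the 8 passed the test for the gate averaged over clones in either fit, with log2 differences of -0.33 to 0.03 without pairs and -0.295 to 0.079 within pairs. Among the members, the deviations of Mmp15 were likest to those of Timp1 (r = 0.846), while Timp2 gave 0.287, Timp3 -0.01 and Mmp14 -0.22. Without pair 1 of clone 10, Mmp2 gave 0.872 and Mmp15 0.861. These correlations share libraries and pairs and are descriptions.

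Timp2, on chromosome 11 (118301069 to 118355740), had a lower level on the GFP-positive side in 5 of 6 pairs. In clone 10 it had 27.5, 18.5 and 89.7 CPM in GFP-positive replicates, against 14.3, 44.3 and 186.1 CPM in GFP-negative replicates. In clone 4 Timp2 had 19.9, 55.6 and 17.6 CPM in GFP-positive replicates, against 50.3, 139.0 and 57.7 CPM in GFP-negative replicates. The groups overlapped in both clones. The pair that went the other way was pair 1 of clone 10, whose GFP-negative library is the shallowest. In the fit without pairs the mean log2 difference of the clones was -1.15 (SE 0.57) and did not pass the test (edgeR, adjusted p = 0.75). Within pairs it was -1.04 (SE 0.23), or 0.488 times, and passed (edgeR with the pair as a block, adjusted p = 0.046), and the difference within clone 4 alone, -1.44 (SE 0.31), did not pass (adjusted p = 0.17). The call rests on few libraries: it was lost without any 1 of the other 5 pairs (adjusted p = 0.083 to 0.18) and kept without pair 1 of clone 10.

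Timp3, on chromosome 10 (86300372 to 86349506), inhibits MMPs and also the ADAM family of sheddases. In clone 10 it had 11.6, 11.7 and 12.5 CPM in GFP-positive replicates, against 4.01, 14.9 and 16.6 CPM in GFP-negative replicates. In clone 4 Timp3 had 7.69, 12.1 and 6.63 CPM in GFP-positive replicates, against 9.16, 29.7 and 12.4 CPM in GFP-negative replicates. Again pair 1 of clone 10 went the other way from the other 5, by 1.21 on the log2 scale. Timp3 did not pass the test, with a mean log2 difference of -0.50 (SE 0.34, adjusted p = 0.77) and within pairs -0.38 (SE 0.23, adjusted p = 0.30). Without pair 1 of clone 10 the value within pairs was -0.61 (SE 0.14) and passed (adjusted p = 0.029). Timp3 shares exon sequence with Syn3 on the opposite strand, which had 0.705 to 3.94 CPM, and reads there cannot be told apart without strand.

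Mmp3, which cuts proteoglycans and activates other pro-MMPs, and Mmp13, the main collagenase of rodents, lie in a cluster of 10 Mmp genes on chromosome 9, of which these 2 were abundant enough to be tested. In clone 10 Mmp3 had 1.15, 0.572 and 1.87 CPM in GFP-positive replicates, against 1.31, 2.27 and 1.43 CPM in GFP-negative replicates. In clone 4 Mmp3 had 0.144, 1.99 and 0.321 CPM in GFP-positive replicates, from 3, 41 and 11 counts, against 3.15, 7.09 and 2.43 CPM in GFP-negative replicates, from 69, 136 and 60 counts. The groups of clone 4 did not overlap, as for 2.04% of all tested genes that were lower in GFP-positive cells there, and those of clone 10 did. The mean log2 difference was -1.50 (SE 0.56, adjusted p = 0.57) and within pairs -1.71 (SE 0.39, adjusted p = 0.052), just outside the threshold. Fitted within pairs, the difference was -0.72 in clone 10 (SE 0.54, adjusted p = 0.42) and -2.70 in clone 4 (SE 0.55, adjusted p = 0.13), and the test of the gap between the clones gave 1.98 (SE 0.78, adjusted p = 0.63).

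In clone 10 Mmp13 had 0.942, 1.05 and 2.42 CPM in GFP-positive replicates, against 0.540, 2.48 and 2.53 CPM in GFP-negative replicates. In clone 4 Mmp13 had 0.192, 1.40 and 0.438 CPM in GFP-positive replicates, against 0.729, 7.40 and 0.890 CPM in GFP-negative replicates. In 5 of 6 pairs the GFP-positive library had the lower level, and the groups overlapped in both clones. The mean log2 difference was -1.27 (SE 0.66, adjusted p = 0.76) and within pairs -1.11 (SE 0.31, adjusted p = 0.087). Mmp13 and Mmp3 deviated from their group means together (r = 0.756 over 12 libraries, a description). Mmp13 did so as closely with members on other chromosomes, Timp3 (r = 0.871) and Timp2 (r = 0.759).

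The remaining members changed direction between pairs. Mmp2, which cuts denatured collagen and type IV collagen, had 22.3, 14.0 and 66.1 CPM in GFP-positive replicates of clone 10, against 6.55, 18.5 and 86.6 CPM in GFP-negative replicates. In clone 4 Mmp2 had 45.7, 52.3 and 17.5 CPM in GFP-positive replicates, against 33.8, 75.2 and 24.2 CPM in GFP-negative replicates. Both pairs numbered 1 had more Mmp2 in the GFP-positive library and the other 4 had less, and the mean difference was -0.02 within pairs (SE 0.24, adjusted p = 0.96). Mmp2 and Timp2, its partner in activation, deviated together (r = 0.940 over 12 libraries, a description).

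Mmp14, which activates pro-Mmp2 at the cell surface, had 46.4, 41.9 and 53.4 CPM in GFP-positive replicates of clone 10, against 31.5, 52.9 and 98.1 CPM in GFP-negative replicates. In clone 4 it had 41.7, 41.8 and 47.8 CPM in GFP-positive replicates, against 28.3, 79.2 and 65.2 CPM in GFP-negative replicates. Its GFP-positive libraries lay close together and its GFP-negative libraries were spread around them. The mean difference was -0.40 (SE 0.26, adjusted p = 0.76) and within pairs -0.30 (SE 0.20, adjusted p = 0.33). For Mmp9, whose values are given below, the difference was 0.48 within pairs (SE 0.26, adjusted p = 0.26). For Mmp15 it was 0.24 within pairs (SE 0.12, adjusted p = 0.22), with a higher level on the GFP-positive side in 5 of 6 pairs.

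Besides Timp1, 0 of 8 members were called without pairs by edgeR in clone 10, in clone 4 or in the mean of both, where 0.0%, 0.0% and 0.158% of 15179 genes were called. At an unadjusted p under 0.05 there were 0 in clone 10, 2 in clone 4 (Mmp3 and Mmp13) and 1 in the mean (Mmp3), beside 7.45%, 1.38% and 6.77% of genes. DESeq2 without pairs called 0 of the 8 in each, beside 1.91%, 0.218% and 1.89% of genes. Within pairs edgeR called 0 in clone 10, 0 in clone 4 and 1 in the mean, Timp2, where 4.22%, 0.119% and 3.36% of genes were called and 0.85% were called lower in the mean. At an unadjusted p under 0.05 there were then 0, 4 and 3, beside 25.2%, 7.42% and 26.3% of genes. DESeq2 with the pair as a block called 0 in clone 10, 2 in clone 4 (Timp2 and Mmp3) and 3 in the mean (Timp2, Mmp3 and Mmp13), all lower in GFP-positive cells, beside 10.4%, 1.2% and 9.69% of genes. The median log2 difference of these 8 genes was -0.45 without pairs and -0.34 within pairs, beside -0.009 and 0.003 over all genes tested.

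Of the 8 members besides Timp1, 0 were called for a difference in the gate effect between the clones by edgeR and by DESeq2, with and without pairs, where edgeR called 0.0% of genes in both fits, DESeq2 0.0% without pairs and DESeq2 0.408% with them. At an unadjusted p under 0.05 edgeR had 0 members without pairs and 2 within pairs, Mmp3 and Mmp13, beside 0.922% and 7.69% of genes. The 95% interval of the gap, clone 10 minus clone 4, ran within pairs from 0.21 to 3.74 for Mmp3 and from 0.01 to 2.77 for Mmp13.

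**Figure D2:**
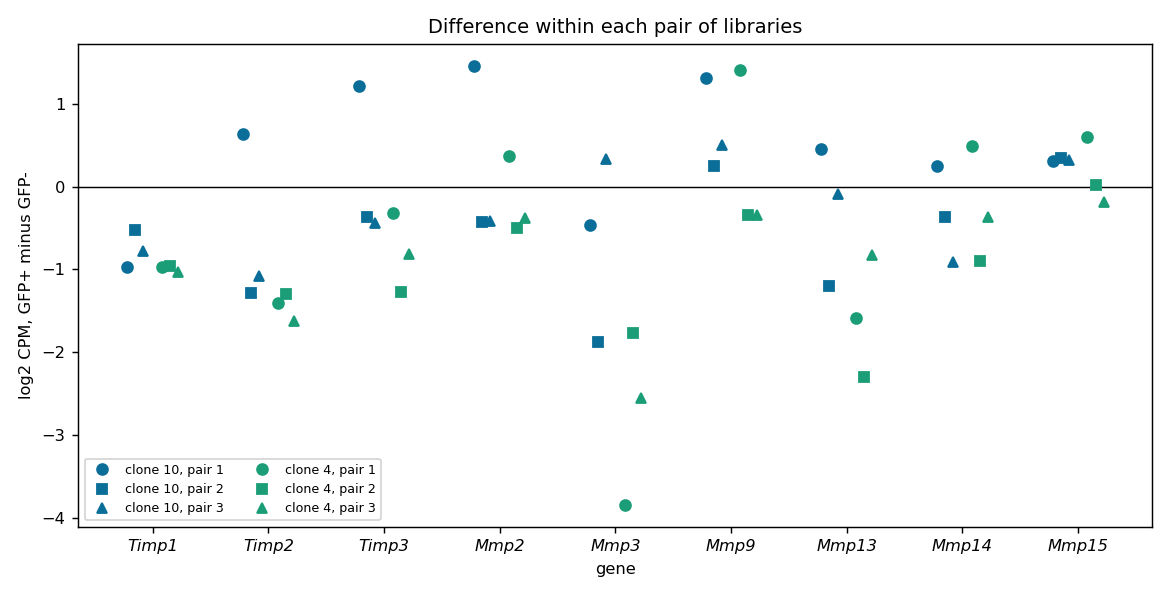
Difference in log2 CPM between the GFP-positive and the GFP-negative library of each of the 6 pairs, by gene, with 1 point per pair. All 6 points of Timp1 lie between -1.04 and -0.52, while pair 1 of clone 10 lies above 0 for Timp2, Timp3, Mmp2, Mmp9, Mmp13, Mmp14 and Mmp15.

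Markers of fibroblasts, stromal cells that secrete many of these proteins, were counted beside the members. Of 23 such genes, 21 were tested. Without pairs edgeR called 0 (7 at an unadjusted p under 0.05) and DESeq2 called 3, all lower in GFP-positive cells, with a median log2 difference of -1.01 in edgeR. Over all genes edgeR called 0.158% there, with 6.77% at an unadjusted p under 0.05, and DESeq2 called 1.89%. Within pairs edgeR called 8, all lower in GFP-positive cells, with a median of -0.84, where 3.36% of all genes were called and 0.85% were lower. In clone 10 alone edgeR called 0 (median -0.41), beside 4.22% of all genes, and 6 had an unadjusted p under 0.05, beside 25.2%. In clone 4 alone it called 2, both lower (median -1.26), beside 0.119%, and 15 had an unadjusted p under 0.05, beside 7.42%. DESeq2 with the pair as a block called 4 in clone 10, 11 in clone 4 and 12 in the mean, all lower. It called 10.4%, 1.2% and 9.69% of all genes. The 8 that edgeR called in the mean include Tagln, an actin-binding protein (-1.26, SE 0.17, adjusted p = 0.0073), and the intermediate filament gene Vim (-1.05, SE 0.16, adjusted p = 0.013). Fap and Lum were at 0 in 4 of 12 libraries each. The summed level was 610.0, 749.6 and 1176 CPM in GFP-positive replicates of clone 10, against 422.4, 1033 and 2094 CPM in GFP-negative replicates. It was 317.9, 648.7 and 437.5 CPM in GFP-positive replicates of clone 4, against 521.2, 1289 and 835.5 CPM in GFP-negative replicates. The sum was thus lower in GFP-positive cells in 5 of 6 pairs and higher in pair 1 of clone 10, the pattern that Timp2, Timp3 and Mmp13 also showed. In these bulk libraries, fewer cells of a type and less RNA per cell cannot be told apart. The culture conditions in the labels name no feeder cells. The part of these markers in the members' levels was not tested.

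Over the 6 pairs, the mean deviation of a pair from its groups was set against that of the fibroblast markers and of the pluripotency markers, a comparison added after the levels had been seen. Deviations sum to 0 within a clone, so the exact permutation tests (two-sided) exchange pairs within clones only, which gives 36 arrangements and a smallest p of 0.0278, and p-values were adjusted over the 18 relations. After adjustment none of the 18 passed, with 0.2 the lowest adjusted p for r and 0.25 for rho. A single relation at the smallest p could not pass this adjustment, however close it was. That none passed was thus nearly fixed in advance and does not show that relations are absent. With the fibroblast markers Timp2 had Pearson's r = 0.918 (exact permutation p = 0.0833) and Spearman's rho = 0.943 (exact permutation p = 0.0278). Mmp14 had r = 0.901 (exact permutation p = 0.0556) and rho = 0.886 (exact permutation p = 0.0833). Mmp9 ran the other way, with r = -0.900 (exact permutation p = 0.0833) and rho = -0.829 (exact permutation p = 0.139). Timp3 had r = 0.836 and rho = 0.714 (exact permutation p = 0.111 and 0.222), and Mmp13 r = 0.829 and rho = 0.829 (exact permutation p = 0.0556 for both).

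Mmp2 had r = 0.773 and rho = 0.771 (exact permutation p = 0.222 and 0.194), and Mmp3 r = 0.555 and rho = 0.543 (exact permutation p = 0.139 and 0.25). Mmp15 had r = 0.325 and rho = 0.429 (exact permutation p = 0.583 and 0.472), and Timp1 r = 0.0053 and rho = -0.14 (exact permutation p = 0.972 and 0.778). Leaving out the 2 pairs farthest from the median, pairs 1 and 3 of clone 10, gave r of 0.794 for Timp2, 0.866 for Mmp14, -0.703 for Mmp9, 0.856 for Timp3 and 0.922 for Mmp13. The value for Mmp2 rests on those 2 pairs, since without them r was 0.315. For Mmp3 r was higher without them, at 0.882.

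Pluripotency markers ran against several members over the same pairs. For Mmp3 r was -0.945 and rho -0.943 (exact permutation p = 0.0833 and 0.111), and for Mmp15 r was -0.806 and rho -0.829 (exact permutation p = 0.0833 and 0.0278). For Mmp13 r was -0.893 and rho -0.714 (exact permutation p = 0.111 and 0.278), for Timp3 r was -0.788 and rho -0.486 (exact permutation p = 0.222 and 0.444), and for Timp2 r was -0.778 and rho -0.371 (exact permutation p = 0.111 and 0.333). Mmp2 had r = -0.717 and rho = -0.543 (exact permutation p = 0.0556 and 0.25), and Timp1 r = -0.648 and rho = -0.714 (exact permutation p = 0.278 for both). Mmp14 had r = -0.444 and rho = -0.257 (exact permutation p = 0.556 and 0.778), and Mmp9 r = 0.257 and rho = -0.03 (exact permutation p = 0.611 and 1.0). Without the 2 pairs farthest from the median, pair 3 of clone 10 and pair 2 of clone 4, r was -0.698 for Mmp3, -0.366 for Mmp15, -0.204 for Mmp13, -0.138 for Timp3, -0.479 for Timp1, 0.138 for Mmp2, 0.662 for Timp2, 0.568 for Mmp14 and -0.537 for Mmp9. The values for Timp2, Timp3, Mmp2, Mmp13 and Mmp15 rest on those 2 pairs.

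In pair 1 of clone 10, where the fibroblast markers summed to 610.0 CPM in the GFP-positive and 422.4 CPM in the GFP-negative library, Timp1 was at 69.6 CPM in the GFP-positive and 110.4 CPM in the GFP-negative library. That GFP-negative library is the shallowest, and in the other 5 pairs the markers and Timp1 were both lower on the GFP-positive side.

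**Figure D3:**
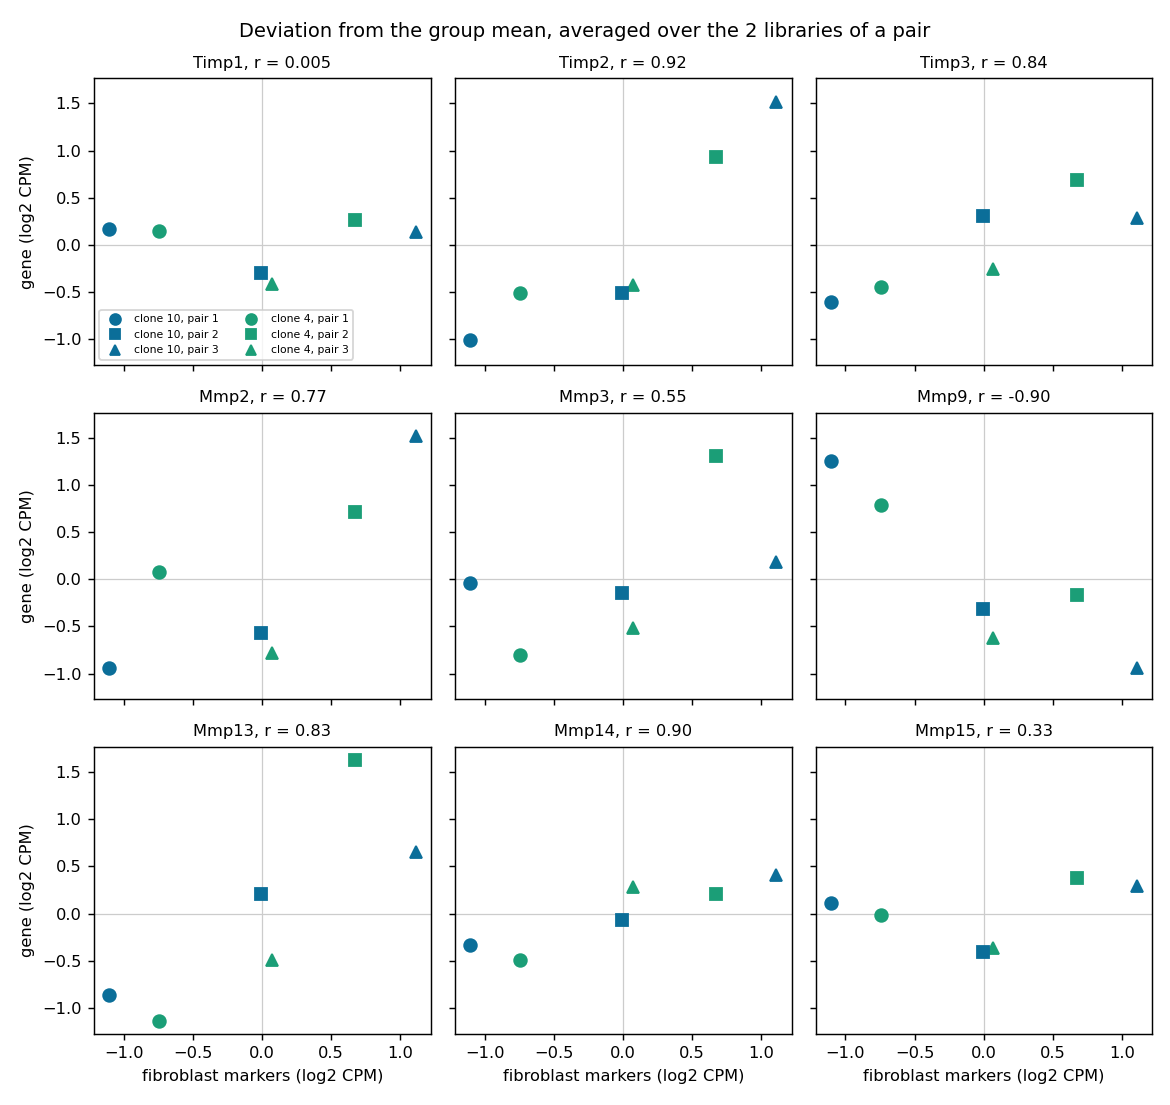
Deviation of each gene from its group mean against that of the fibroblast markers, both in log2 CPM and averaged over the GFP-positive and GFP-negative library of a pair, with 1 point per pair. Timp2 and Mmp14 rise with the markers (r = 0.92 and 0.90), Mmp9 falls (r = -0.90) and the points of Timp1 give r = 0.0053.

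Mmp9, on chromosome 2 (164940780 to 164955850), followed the order of the passage labels instead. It had 20.1, 4.31 and 3.35 CPM at passages 12, 18 and 20 in GFP-positive cells of clone 10, and 6.55, 3.53 and 2.29 CPM at passages 11, 17 and 19 in GFP-negative cells. In clone 4 it had 22.8, 6.29 and 4.15 CPM at passages 11, 14 and 16 in GFP-positive cells, and 8.16, 8.13 and 5.63 CPM at passages 11, 13 and 15 in GFP-negative cells. The level was lower at each later passage in all 4 groups, which held for 0.158% of genes tested and for no other member. The earliest GFP-positive library of each clone stood above all others, at 20.1 and 22.8 CPM. A slope fitted over all libraries, added after these levels had been seen, was -0.30 log2 units per passage (SE 0.05) and did not pass over all genes (edgeR, adjusted p = 0.082), where 0.0% of genes passed. Within each group the labelled passage rises with the replicate number, so order by passage and order by replicate are the same. The labels also rise step by step along the order of the samples, so their accuracy is uncertain. Passage and pair number go together here and cannot be told apart. The mean deviation of the fibroblast markers rose over pairs 1 to 3 in clone 10 (-1.106, -0.005 and 1.111). In clone 4 it did not follow that order (-0.745, 0.674 and 0.071). The part of passage or of these markers in the level of Mmp9 was not tested.

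**Figure D4:**
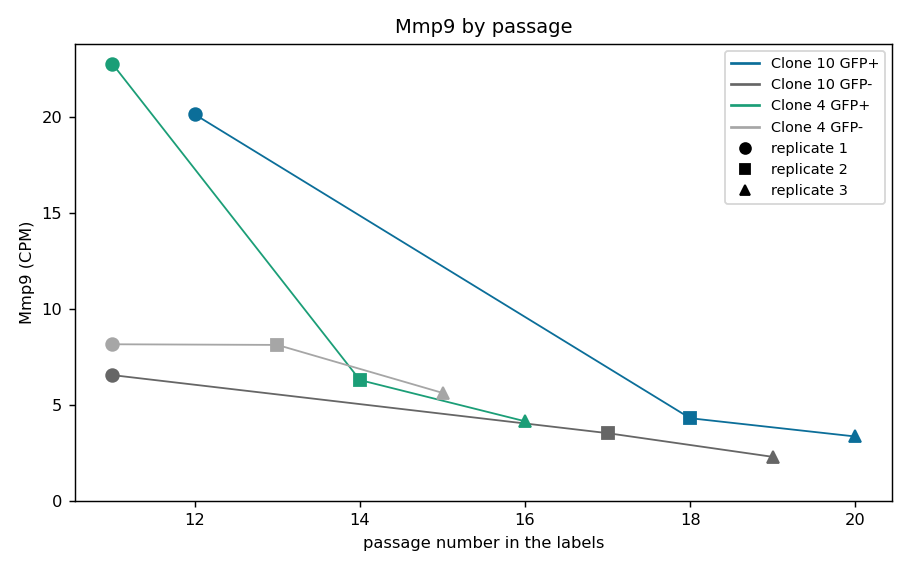
Level of Mmp9 in CPM against the passage number in the labels, with a line per group and 1 point per library. In each group the earliest passage has the highest level, and the earliest GFP-positive libraries reach 20.1 CPM in clone 10 and 22.8 CPM in clone 4.

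The rule that picked the set used the gate difference of Timp1 and no difference between the clones, so all 9 members were tested here. The members were chosen with earlier results of these data known, so the choice may not be free of their values. Mmp15, a membrane-anchored MMP on chromosome 8 (95352268 to 95374293), was lower in clone 10. It had 24.1, 15.9 and 28.3 CPM in GFP-positive replicates of clone 10, against 51.3, 54.8 and 27.6 CPM in those of clone 4. It had 15.8, 12.2 and 22.1 CPM in GFP-negative replicates of clone 10, against 32.3, 54.9 and 33.4 CPM in those of clone 4. The GFP-negative libraries of the clones did not overlap, as for 10.7% of genes that were lower in clone 10. Mmp3 showed the same, with 1.31, 2.27 and 1.43 CPM in GFP-negative cells of clone 10 against 3.15, 7.09 and 2.43 CPM in those of clone 4, and did not pass (-1.14, SE 0.77, adjusted p = 0.58). For Mmp15, among GFP-positive libraries 1 of clone 4 lay within the range of clone 10. The log2 difference, averaged over the gates, was -1.02 (SE 0.22), or 0.494 times, and passed (edgeR, adjusted p = 0.019), where 7.06% of genes were called and 3.35% were lower in clone 10. This fit takes the 2 libraries of a pair as independent, though their deviations from group means correlated at 0.641 to 0.900. Standard errors and p-values of clone differences averaged over the gates are thus likely too small, for every member. With the same limit, the Mmp15 difference passed in each of the 12 fits that left out 1 library (adjusted p = 0.014 to 0.0497). With passage as a covariate it was -0.98 (SE 0.26, adjusted p = 0.045). Within GFP-positive cells alone it was -0.93 (SE 0.31, adjusted p = 0.17), and within GFP-negative cells alone -1.10 (SE 0.31, adjusted p = 0.21), where 1.11% and 0.0461% of genes were called.

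The other 8 members did not pass between the clones, with mean log2 differences of -0.41 for Mmp9 to 0.31 for Timp2 and Mmp13. Timp1, at 66.4 ± 10.4 CPM in GFP-positive cells of clone 10 against 51.5 ± 15.2 CPM in those of clone 4, and 104 ± 24.9 CPM in GFP-negative cells of clone 10 against 102 ± 24.9 CPM in those of clone 4 (SD, n = 3), gave 0.31 (SE 0.19, 95% confidence interval -0.10 to 0.71, adjusted p = 0.34). The intervals of Timp2, Mmp2, Mmp3, Mmp9 and Mmp13 spanned more than a doubling in one direction or the other and were too wide to show that the clones were alike. Each clone is a single line, so how far clones of 1 genotype vary was not measured.

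**Figure D5:**
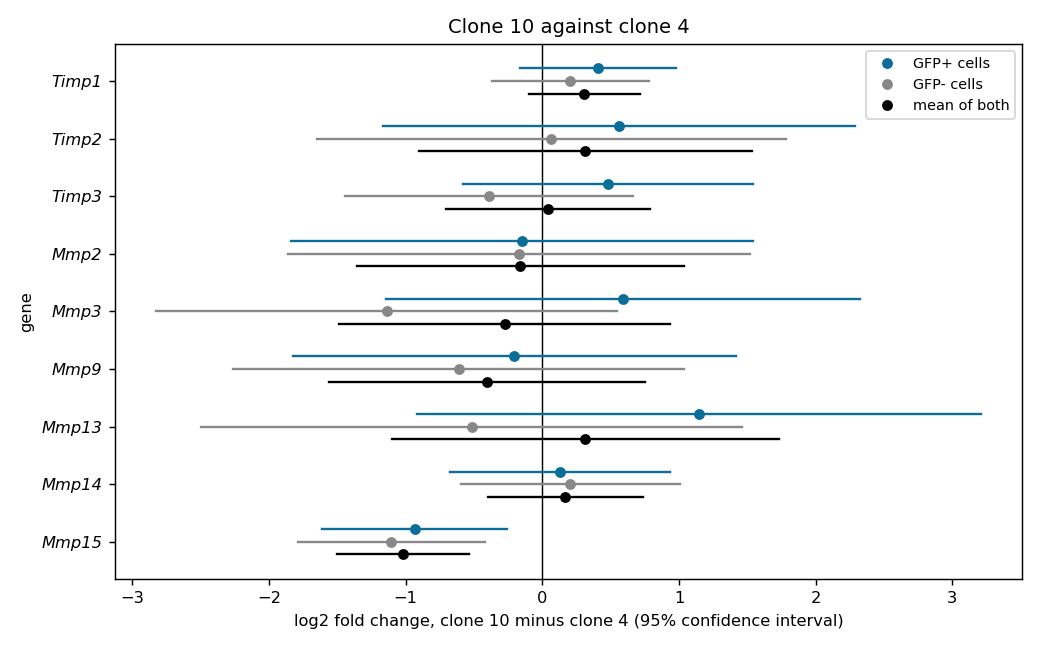
Log2 fold change of clone 10 over clone 4 for each gene, in GFP-positive cells, in GFP-negative cells and averaged over both, with 95% confidence intervals from the edgeR fit. Only the 3 intervals of Mmp15 lie wholly below 0, at -0.93, -1.10 and -1.02.

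Of 18 further TIMP and MMP genes, 8 were tested, and the other 10, among them Timp4, Mmp7 and Mmp10, had at most 16 counts in any library. None of the 8 was called between GFP-positive and GFP-negative cells, by edgeR or DESeq2, in the mean of both clones, with or without pairs. At an unadjusted p under 0.05 edgeR had 0 without pairs and 4 of 8 within pairs, where 26.3% of all genes were under it. Between the clones, averaged over the gates, edgeR called 1 of the 8, beside 7.06% of genes. This was Mmp11, a stromelysin that is activated inside the cell, which was lower in clone 10 (-1.27, SE 0.33, adjusted p = 0.040, edgeR), as Mmp15 was. Here too the fit takes the libraries of a pair as independent, so this p is likely too small. DESeq2 called 1 of the 8 higher and 1 lower in clone 10, beside 14.5% of genes.

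Genes that act with the members were counted for the gate averaged over the clones. For this gate without pairs, edgeR called 0.158% of all genes and DESeq2 1.89%, and 6.77% had an unadjusted p under 0.05 by edgeR. The unadjusted share for DESeq2 was not counted. These shares stand beside the counts without pairs of each list below. Among 23 tested activators, inhibitors and TIMP partners, 0 were called without pairs (edgeR and DESeq2, 3 and 6 at an unadjusted p under 0.05). Within pairs edgeR called 1, the proprotein convertase Pcsk5, which was higher in GFP-positive cells (1.00, SE 0.21, adjusted p = 0.041), and DESeq2 called 3 higher and 3 lower. Over all genes edgeR called 3.36% within pairs and DESeq2 called 9.69%. Of the 23 genes, 7 had an unadjusted p under 0.05 by edgeR within pairs, beside 26.3% of all genes. Among 26 matrix substrates, 0 were called without pairs (4 by edgeR and 5 by DESeq2 at an unadjusted p under 0.05). Within pairs DESeq2 called 1 higher and 7 lower, and edgeR called 2, the small proteoglycan genes Dcn (-1.64, SE 0.35, adjusted p = 0.044) and Bgn (-1.36, SE 0.21, adjusted p = 0.013), both lower in GFP-positive cells. Of the 26 substrates, 14 had an unadjusted p under 0.05 by edgeR within pairs, beside the same 26.3% of all genes. Dcn is also on the fibroblast list, which shares 7 genes with the substrates. The substrates' median was -0.25 without pairs and -0.06 within pairs.

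Among 25 tested regulators, which include the AP-1 and STAT3 genes known to act on TIMP1 and MMP promoters, 0 were called in the mean of both clones without pairs by edgeR and DESeq2 (2 at an unadjusted p under 0.05 by each). In clone 10 alone DESeq2 without pairs called 1, lower, beside 1.91% of all genes. Within pairs DESeq2 called 1 higher and 2 lower in the mean, and edgeR called 2, both lower in GFP-positive cells, Ets2, a transcription factor (-0.39, SE 0.09, adjusted p = 0.047), and Tgfb1, a growth factor that controls matrix genes (-0.55, SE 0.11, adjusted p = 0.038). Of the 25 regulators, 10 had an unadjusted p under 0.05 by edgeR within pairs, beside 26.3% of all genes. Ets2 also passed in clone 10 alone (-0.67, SE 0.12, adjusted p = 0.019). The AP-1 gene Jun (0.51, SE 0.21, adjusted p = 0.17) and the related Atf3 (0.93, SE 0.21, adjusted p = 0.051) did not pass in the mean, and Atf3 was higher in GFP-positive cells of clone 10 alone (1.36, SE 0.29, adjusted p = 0.037). Their median was -0.15 within pairs. Among 25 tested ADAM and ADAMTS proteases, which Timp3 is known to inhibit in part, 0 were called without pairs (edgeR and DESeq2, 2 and 3 at an unadjusted p under 0.05) and 0 by edgeR within pairs, where 9 of 25 had an unadjusted p under 0.05, beside 26.3% of all genes, and DESeq2 called 1 higher and 1 lower. Adam17, a sheddase that TIMP3 inhibits, gave 0.33 (SE 0.11, adjusted p = 0.13), and Adam8 gave 0.73 (SE 0.22, adjusted p = 0.11). The median of this list was 0.15 within pairs.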

How the data were processed

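RNA sequencing libraries of 12 sorted samples were analysed. STAR 2.3.0e, HTSeq 0.6.0, DESeq2, DESeq and mm10 are named in the submitters' processing notes, and libraries were made with a TruSeq v2 kit per the labels' protocols; the strand setting is not given in the sources used here. The table deposited by the authors holds whole-number read counts, not normalized. The authors' deposited table per clone adds a signal (counts divided by size factors), a log2 fold change, a score (its ratio to the standard error) and p-values. Count columns of both kinds of table were compared, and 0 differed.

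The deposited counts entered edgeR's quasi-likelihood test (version 4.0.16 under R 4.3.3, TMM, robust), on genes reaching a level worth 10 counts in at least 3 libraries and 15 counts in total, which left 15179 genes. All 12 libraries entered 1 fit with a term per group (8 residual degrees of freedom). Benjamini-Hochberg adjustment ran over every gene tested, with calls under 0.05. Every adjusted p is edgeR's unless another test is named. SE is the standard error of a log2 fold change. DESeq2 1.42.0 was run beside it. Exon lengths came from GENCODE M21. The script was tested on simulated data.

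Replicate numbers pair the libraries within a clone: deviations from the group means correlated at 0.641 to 0.900 in the 6 same-numbered pairs and at -0.617 to -0.193 otherwise. The fit within pairs holds clone and number as a block (4 residual degrees of freedom, coefficient of variation 0.175 against 0.389).

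The members and gene lists were chosen with earlier results of these data known. Named genes were the 9 members, up to 4 genes of each list by smallest p for the gate averaged over the clones, and the 8 genes likest to Timp1 with a mean log2 CPM of at least 1. Mmp11, the untested relatives and the marker genes at 0 were named after their values had been seen. Alternatives were other tools and filters, passage as a covariate, and leaving out each library or pair.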

Additional observations from a re-analysis of the deposited data

How the results depend on the processing

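The differences of Timp1 kept their sign in every alternative run, at -0.96 to -0.63 in clone 10 and -1.15 to -0.78 in clone 4. Members called, besides Timp1, changed with the replicate block. For the mean of both clones 0 were called without it, 1 with it (Timp2) and 3 by DESeq2 with the block. For clone 4, DESeq2 with the block called 2, against 0 in edgeR. Leaving out each pair in turn within the block gave 0 to 1 in clone 10, 0 to 2 in clone 4 and 0 to 4 in the mean, the highest each time without pair 1 of clone 10, which left Timp2, Timp3, Mmp3 and Mmp13 called. The block changed no other call of a member. Between clones same-numbered libraries correlated at -0.505 to 0.684 and share only a number. With the number as a block Mmp15 stayed lower in clone 10 (-1.01, adjusted p = 0.023, edgeR), a block that does not hold the pairs within a clone. DESeq2 called 1 member, Mmp15, between the clones in GFP-negative cells.

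Directions turned only for differences that were not called. In clone 10 Timp3 was 0.062 with the block and 0.08 by DESeq2 with it, against -0.06, and Mmp2 was 0.12 and 0.15, against -0.17. Leaving out 1 library gave, in clone 10, -1.82 to 0.43 for Timp2, -0.43 to 0.17 for Timp3, -1.03 to 1.24 for Mmp2 and -0.25 to 1.59 for Mmp9, in clone 4, -0.48 to 0.37 for Mmp2, -0.45 to 0.97 for Mmp9 and -0.002 to 0.41 for Mmp15, and in the mean -0.62 to 0.52 for Mmp2. Leaving out 1 pair within the block gave, in clone 10, -0.41 to 0.35 for Timp3, -0.43 to 0.45 for Mmp2 and -0.68 to 0.12 for Mmp13, in clone 4, -0.35 to 0.57 for Mmp9, -0.63 to 0.062 for Mmp14 and -0.081 to 0.32 for Mmp15, and in the mean -0.30 to 0.14 for Mmp2. The cause was not tested. Correlations of deviations with Timp1 ran from 0.79 to 0.94 for Mmp15 and from -0.52 to 0.87 for the others when a pair was left out.

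Over all genes, calls in the mean of both clones numbered 24 without the block, 510 with it, 286 by DESeq2 and 1442 by DESeq2 with the block, with 23, 381, 276 and 897 of them higher in GFP-positive cells. The 3 libraries of each group limit all of these tests, and Mmp3 and Mmp13, at 3 to 142 counts, are limited by depth.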
